A study of Mus musculus with 9 samples.

Results

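The genes described here are the epidermal growth factor receptor, 5 of its ligands and its feedback inhibitor, 7 genes of the 46603 in the count files, chosen by name, with earlier results of these data known. The ligands were Hbegf, Areg, Ereg, Tgfa and Btc, the receptor was Egfr, and the inhibitor was Errfi1. All 7 passed the filter on low counts, as did 14176 genes in all. They were measured by RNA sequencing of β-actin knockout mouse embryonic fibroblasts (MEFs) of the BALB/c strain, prepared from embryos 10.5 days old. One group of 3 libraries came from cells given poly(I:C), which stands in for viral double-stranded RNA. Another 3 came from cells given poly(dA:dT), a double-stranded DNA mimic, and the mock group of 3 had the transfection reagent by itself. Both nucleic acids were given at 10 µg/ml for 6 h with Lipofectamine 2000 in Opti-MEM, and the Opti-MEM and the reagent were common to all 9 samples. The question the design poses is how transcripts change after these viral mimics in cells without β-actin. Every group carried the knockout and no wild-type cells are analysed here, so the effect of β-actin loss itself is not addressed. The labels do not say whether the knockout cells are 1 clone.

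EGFR is a receptor tyrosine kinase. Its ligands are made as membrane-anchored precursors, and the extracellular part is cut free by metalloproteases of the ADAM family, chiefly ADAM17, which needs the iRhom proteins to mature and reach the cell surface. A bound ligand makes the receptor dimerise and phosphorylate its own tail, adaptors such as GRB2 and SHC1 dock there, and the RAS, RAF, MEK and ERK kinases carry the signal to immediate early genes. ERRFI1, also called MIG6, is itself induced by this signalling and then binds the kinase domain and blocks it. Fibroblasts respond to EGF by dividing and migrating, and heparin-binding EGF, amphiregulin and epiregulin are known as early response genes of injured and inflamed tissue.

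The promoters of Areg and Errfi1 are shown because these members had the largest fold changes with poly(I:C) and share a motif that the choice of genes did not use. They were picked after the fold changes and the matches were seen. Nothing on the response of these genes is therefore read from the shared motif. Promoter sequence from RefSeq (GRCm38.p6), 250 bases before to 50 bases after a start site, was used for 5 of the 7 members, in 6 windows, of which Errfi1 had 2. Hbegf and Ereg were not among these 5, so their promoters were not searched. Both strands were searched for the cyclic AMP response element TGACGTCA, the AP-1 motif TGANTCA, the EGR1 motif GCGTGGGCG, the interferon-stimulated response element and the NF-kB motif. The capitals mark the cyclic AMP response element, which is the binding sequence of CREB and ATF factors. Areg lies on the plus strand in the window chr5:91139349-91139648, and this Errfi1 window, also on the plus strand, is chr4:150854820-150855119.
Areg: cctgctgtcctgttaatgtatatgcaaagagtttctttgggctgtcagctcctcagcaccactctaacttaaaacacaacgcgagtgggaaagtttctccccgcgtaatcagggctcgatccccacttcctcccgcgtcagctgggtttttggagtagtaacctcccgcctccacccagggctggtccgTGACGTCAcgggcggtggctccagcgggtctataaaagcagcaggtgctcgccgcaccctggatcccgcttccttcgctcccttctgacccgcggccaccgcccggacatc
Errfi1: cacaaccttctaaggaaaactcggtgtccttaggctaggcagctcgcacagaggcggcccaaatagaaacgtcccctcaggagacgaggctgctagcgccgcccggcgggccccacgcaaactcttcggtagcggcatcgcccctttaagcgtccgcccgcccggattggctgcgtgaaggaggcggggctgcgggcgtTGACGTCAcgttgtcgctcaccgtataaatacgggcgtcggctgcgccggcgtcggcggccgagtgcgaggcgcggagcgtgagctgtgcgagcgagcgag
The first base of the element lies at position -61 of Areg and position -51 of Errfi1, counted from the start site. Of the 32851 promoter windows of all genes, 588 held this element, which is 1.79%. The shares for the other motifs were 7.81% for AP-1, 0.612% for EGR1, 3.44% for the interferon-stimulated element and 8.46% for NF-kB. Tgfa had 1 NF-kB match, whose first base lies at position 23. The windows of Btc and Egfr and the other Errfi1 window held none of the 5 motifs, and no other motif overlapped the elements shown. These matches describe letters in a window and no more.

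Assigned counts per library lay between 16082772 and 22382837 after poly(I:C), between 20738109 and 23185293 after poly(dA:dT), and between 19826550 and 29219797 in mock. Levels are given as CPM, which are counts relative to the scaled library size, and 3 counts correspond to 0.107 to 0.18 CPM. Actb, the gene named as knocked out, still held 565 to 736 counts after poly(I:C), 657 to 716 after poly(dA:dT) and 658 to 924 in mock. These are 32.3 ± 1.34, 30.5 ± 1.29 and 33.2 ± 1.29 CPM in that order of groups (SD, n = 3 each). The labels do not say which part of the gene was deleted, so these reads do not check them. The 9 fibroblast markers summed to 6462 to 6763 CPM after poly(I:C), 7259 to 7381 after poly(dA:dT) and 7525 to 7690 in mock. Col1a1, Vim and Fn1 made up most of these sums, with 2994, 2263 and 1923 CPM in mock, where Thy1 had 1.55 and Dcn 7.84. Ptprc, the common leukocyte antigen, was at 0 counts in all 9 libraries, while the macrophage marker Cd68 averaged 1.79 CPM after poly(I:C), 2.11 after poly(dA:dT) and 3.14 in mock.

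After poly(I:C), 5 of the 7 genes rose against mock (Areg, Ereg, Btc, Egfr and Errfi1), Tgfa fell, and Hbegf did not pass the test. After poly(dA:dT), 4 rose (Areg, Ereg, Egfr and Errfi1), Tgfa fell, and Hbegf and Btc did not pass. A gene is called where the adjusted p of edgeR's quasi-likelihood test, with Benjamini-Hochberg adjustment over all 14176 genes, was below 0.05. For poly(I:C) against mock, 39.8% of all tested genes were called higher, 36.3% lower and 76.1% in either direction, so 6 called of 7 is near the background. For poly(dA:dT) against mock these shares were 26.6%, 26.2% and 52.8%, beside 5 called of 7. With total-count scaling the split over all genes in that comparison was 5000 higher and 2392 lower, in place of 3769 and 3721. In poly(I:C) against poly(dA:dT), the same 5 genes that rose with poly(I:C) against mock were higher, Tgfa was lower and Hbegf did not pass. The background there was 31.3% higher, 32.1% lower and 63.4% in all. The median log2 fold change of the 7 genes was 0.714 for poly(I:C) against mock, 0.483 for poly(dA:dT) against mock and 0.628 for poly(I:C) against poly(dA:dT), where the medians of all tested genes were 0.0363, 0.0106 and 0.00423. CPM values of the groups did not overlap for 6, 5 and 6 members in these comparisons, against 76.8%, 57.3% and 66.1% of all tested genes. Areg is among the genes counted here, although 1 of its 3 mock libraries reached the level of the low-count filter. It was tested through the groups in which it was high, so these counts and medians are a description only. Both comparisons with mock use the same 3 mock libraries, so they are not independent of each other.

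**Figure D1:**
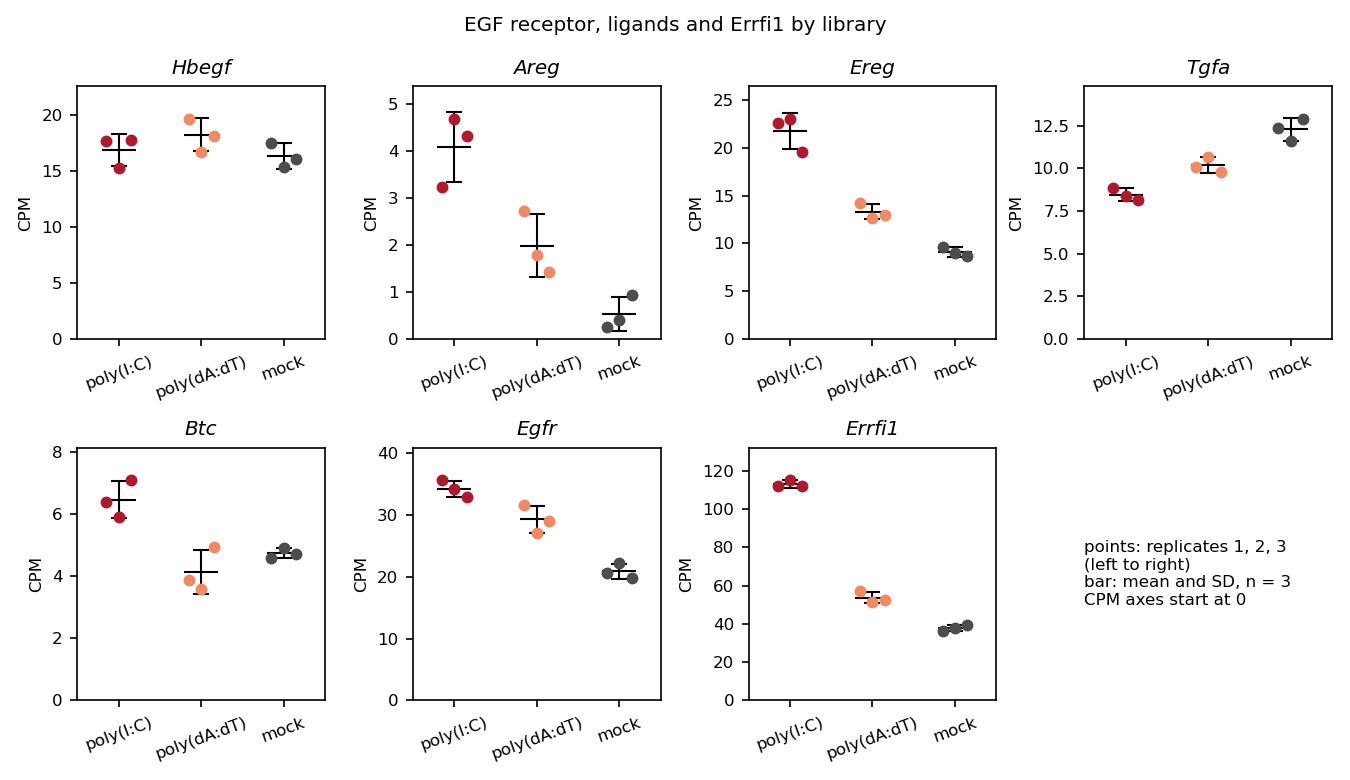
CPM of the 7 genes in each of the 9 libraries, 1 panel per gene with its own linear axis from 0, with poly(I:C), poly(dA:dT) and mock from left to right. Points are libraries and bars are means with SD (n = 3); Areg, Ereg, Egfr and Errfi1 step down from poly(I:C) through poly(dA:dT) to mock without overlap, Tgfa steps up, and the groups overlap for Hbegf.

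Among the ligands, amphiregulin, which needs no ErbB receptor other than EGFR, changed most. Areg (ENSMUSG00000029378, chromosome 5, 91139599 to 91148432, plus strand, GRCm38) had 3.25, 4.69 and 4.32 CPM after poly(I:C), 2.73, 1.8 and 1.43 CPM after poly(dA:dT), and 0.25, 0.415 and 0.947 CPM in mock replicates 1 to 3. No library of one group reached into another group, although mock replicate 3 was well above the other mock libraries. The counts behind these values were 67, 109 and 72 after poly(I:C), 57, 42 and 33 after poly(dA:dT), and 7, 10 and 18 in mock. The transcript was 8.17-fold higher after poly(I:C) than in mock (95% interval 5.71 to 11.7; log2 fold change 3.03 ± 0.26 SE, edgeR adjusted p = 5.64e-20). After poly(dA:dT) it was 3.94-fold higher than in mock (2.62 to 5.91; 1.98 ± 0.3, edgeR adjusted p = 8.6e-09). Poly(I:C) exceeded poly(dA:dT) by 2.08-fold (1.58 to 2.74; edgeR adjusted p = 2.78e-06). Only 2.76% of tested genes had a larger log2 fold change with poly(I:C) against mock, and 1.54% with poly(dA:dT) against mock. The size rests in part on mock replicate 3: without it the rise was 12.3-fold with poly(I:C) and 5.92-fold with poly(dA:dT). Areg passed the filter on low counts, 10 counts in a library of median size, through its transfected libraries, since 1 of the 3 mock libraries was above that level.

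Epiregulin, which binds EGFR and ERBB4, rose by less. Ereg (ENSMUSG00000029377, chromosome 5, 91074622 to 91093646, plus strand) had 22.6, 23 and 19.5 CPM after poly(I:C), 14.2, 12.7 and 13 CPM after poly(dA:dT), and 9.62, 8.96 and 8.63 CPM in mock. The 3 groups were fully separated, with poly(dA:dT) nearer to mock. The increase was 2.39-fold with poly(I:C) (2.14 to 2.68; log2 1.26 ± 0.084 SE, edgeR adjusted p = 4.12e-31) and 1.46-fold with poly(dA:dT) (1.29 to 1.65; log2 0.545 ± 0.09 SE, edgeR adjusted p = 4.87e-08). Poly(I:C) was 1.64-fold above poly(dA:dT) (1.47 to 1.83; edgeR adjusted p = 5.3e-15). Ereg shares 141 exon bases with Gm19610 on the opposite strand, and without strand information reads there could belong to either. Gm19610 held 79 counts over the 9 libraries, against 1326, 895 and 649 summed counts of Ereg in the poly(I:C), poly(dA:dT) and mock groups.

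Betacellulin, a ligand of EGFR and ERBB4, was higher with poly(I:C) than in both other groups. Btc (ENSMUSG00000082361, chromosome 5, 91357261 to 91402994, minus strand) had 6.4, 5.9 and 7.08 CPM after poly(I:C), 3.88, 3.59 and 4.95 CPM after poly(dA:dT), and 4.58, 4.9 and 4.73 CPM in mock. All poly(I:C) libraries exceeded the other 6, while poly(dA:dT) and mock overlapped through poly(dA:dT) replicate 3. The fold was 1.35 for poly(I:C) against mock (1.13 to 1.62; log2 0.438 ± 0.13 SE, edgeR adjusted p = 0.00166). It was 0.876 for poly(dA:dT) against mock (0.725 to 1.06; edgeR adjusted p = 0.256), which did not pass. The direct comparison of poly(I:C) with poly(dA:dT) gave 1.55-fold (1.29 to 1.86; log2 0.628 ± 0.14 SE, edgeR adjusted p = 2.09e-05).

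Transforming growth factor alpha, a ligand of EGFR, was the member that fell. Tgfa (ENSMUSG00000029999, chromosome 6, 86195223 to 86275719, plus strand) had 8.87, 8.4 and 8.15 CPM after poly(I:C), 10.1, 10.7 and 9.78 CPM after poly(dA:dT), and 12.4, 11.6 and 12.9 CPM in mock. Every poly(I:C) library lay below every poly(dA:dT) library, and these below every mock library. The fold was 0.691 for poly(I:C) against mock (0.606 to 0.788; log2 -0.533 ± 0.096 SE, edgeR adjusted p = 2.83e-07) and 0.829 for poly(dA:dT) against mock (0.732 to 0.938; log2 -0.271 ± 0.091 SE, edgeR adjusted p = 0.00806). Poly(I:C) against poly(dA:dT) gave 0.834 (0.728 to 0.956; edgeR adjusted p = 0.0171). The poly(dA:dT) call was lost when libraries were scaled by total counts (log2 -0.197, edgeR adjusted p = 0.0606). The call between the nucleic acids was lost with DESeq2 (log2 -0.269, adjusted p = 0.0652). It was also lost without poly(dA:dT) replicate 2 (edgeR adjusted p = 0.0736), without poly(I:C) replicate 2 (edgeR adjusted p = 0.051) and without poly(I:C) replicate 3 (edgeR adjusted p = 0.0501).

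Heparin-binding EGF, a ligand of EGFR and ERBB4, did not pass the test in any of the 3 comparisons. Hbegf (ENSMUSG00000024486, chromosome 18, 36504927 to 36515805, minus strand) had 17.6, 15.2 and 17.7 CPM after poly(I:C), 19.6, 16.7 and 18.1 CPM after poly(dA:dT), and 17.5, 15.3 and 16 CPM in mock. The ranges of all 3 groups overlapped. The fold against mock was 1.03 with poly(I:C) (0.921 to 1.14; log2 0.0365 ± 0.079 SE, edgeR adjusted p = 0.681) and 1.11 with poly(dA:dT) (1 to 1.23; log2 0.152 ± 0.076 SE, edgeR adjusted p = 0.0848). For poly(I:C) against poly(dA:dT) it was 0.923 (0.83 to 1.03; edgeR adjusted p = 0.191). With poly(dA:dT) the gene was called higher after upper-quartile scaling (log2 0.173, edgeR adjusted p = 0.0475) and after total-count scaling (log2 0.226, edgeR adjusted p = 0.00825). It was also called without mock replicate 1 (log2 0.216, edgeR adjusted p = 0.0329) and without poly(dA:dT) replicate 2 (log2 0.209, edgeR adjusted p = 0.033). The poly(I:C) value changed sign without mock replicate 2, where log2 was -0.0136, and without poly(I:C) replicate 1 or 3, where it was -0.00412 and -0.00159.

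The receptor rose with both nucleic acids. Egfr (ENSMUSG00000020122, chromosome 11, 16752203 to 16918158, plus strand) had 35.6, 34.2 and 33 CPM after poly(I:C), 31.6, 27.1 and 29.1 CPM after poly(dA:dT), and 20.6, 22.2 and 19.8 CPM in mock. The transfected groups lay close together and apart from mock. Egfr was 1.64-fold higher with poly(I:C) than in mock (1.51 to 1.78; log2 0.714 ± 0.062 SE, edgeR adjusted p = 6.07e-22) and 1.4-fold higher with poly(dA:dT) than in mock (1.28 to 1.52; log2 0.483 ± 0.062 SE, edgeR adjusted p = 1.1e-11). Between the nucleic acids the difference was 1.17-fold (1.08 to 1.27; log2 0.231 ± 0.059 SE, edgeR adjusted p = 0.000316), with poly(I:C) higher. It was thus unlike Areg, Ereg, Btc and Errfi1 in the size of the step between the nucleic acids, whose intervals for the fold lay above 1.27 throughout, although the difference between genes was not itself tested.

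Errfi1, the inhibitor of the receptor kinase, had the smallest standard errors of the 7 genes. Errfi1 (ENSMUSG00000028967, chromosome 4, 150853919 to 150868892, plus strand) had 112, 115 and 112 CPM after poly(I:C), 57.3, 51.6 and 52.5 CPM after poly(dA:dT), and 36.3, 37.9 and 39.2 CPM in mock. Replicates lay within a few CPM of each other and the groups were far apart. The gene was 3-fold higher with poly(I:C) than in mock (2.84 to 3.17; log2 1.58 ± 0.041 SE, edgeR adjusted p = 1.79e-79) and 1.43-fold higher with poly(dA:dT) than in mock (1.34 to 1.51; log2 0.511 ± 0.045 SE, edgeR adjusted p = 1e-20). Poly(I:C) exceeded poly(dA:dT) by 2.11-fold (2 to 2.22; edgeR adjusted p = 1.67e-59). Per kb of exon its level was at percentile 87.3 of the tested genes after poly(I:C), 71.8 after poly(dA:dT) and 63.6 in mock.

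**Figure D2:**
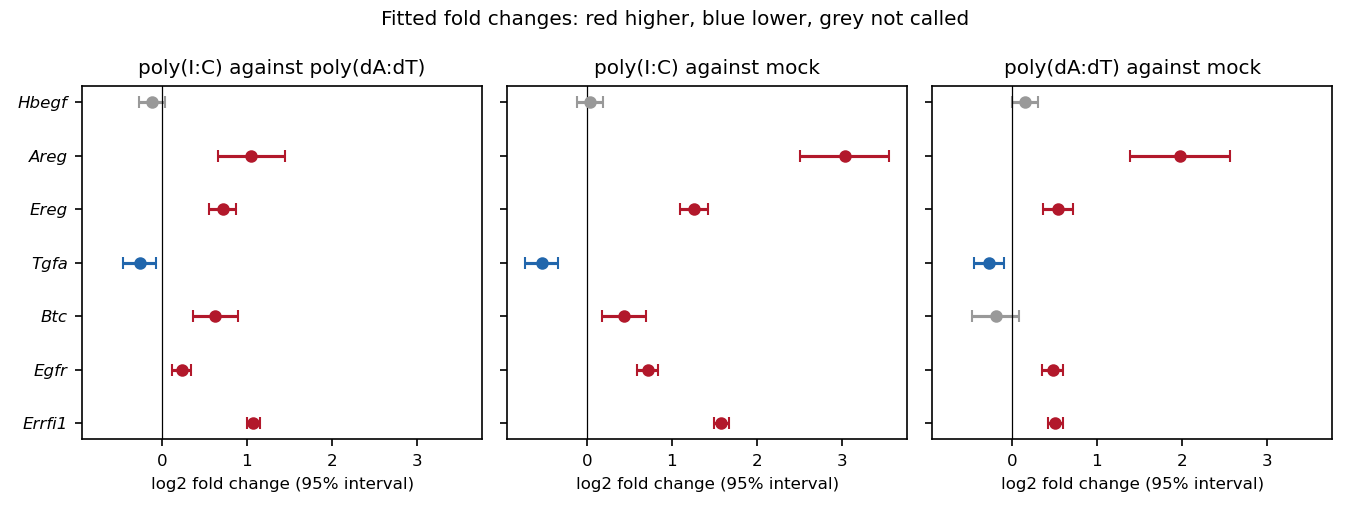
Log2 fold change of each of the 7 genes in the 3 comparisons, with bars for 95% intervals from the edgeR fit and a line at 0, red where called higher, blue where called lower and grey where not called. Areg reaches 3.03 with poly(I:C) against mock, the Tgfa values lie below 0, and the Hbegf intervals for poly(I:C) lie across 0.

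Levels of different genes were compared per kb of merged exons, since a longer transcript gives more reads. On this scale the 5 ligands summed to 14.8 ± 0.298 CPM per kb after poly(I:C), 11.1 ± 0.921 after poly(dA:dT) and 8.95 ± 0.354 in mock (SD, n = 3 each). The lowest poly(dA:dT) library exceeded the highest mock library, and all poly(I:C) libraries lay above both groups. Epiregulin was the highest ligand after poly(I:C), at 5.26 ± 0.456 CPM per kb, followed by Hbegf at 3.48 ± 0.296 and Areg at 3.36 ± 0.618, which do not differ beyond their spread. After poly(dA:dT) Hbegf had 3.76 ± 0.302, Ereg 3.23 ± 0.19 and Areg 1.63 ± 0.55 CPM per kb. In mock Hbegf led with 3.36 ± 0.235, then came Ereg with 2.2 ± 0.123, Tgfa with 1.9 ± 0.102, Btc with 1.05 ± 0.0352 and Areg with 0.442 ± 0.299. Areg was the lowest ligand in mock, while after poly(I:C) it stood above Btc with 1.43 ± 0.131 and Tgfa with 1.31 ± 0.0558.

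As shares of that sum, Areg made up 22.6% ± 3.78 after poly(I:C), 14.5% ± 3.73 after poly(dA:dT) and 4.91% ± 3.19 in mock. Ereg made up 35.5% ± 2.97, 29.1% ± 0.687 and 24.6% ± 1.67 in the poly(I:C), poly(dA:dT) and mock groups. The share of Hbegf was 23.5% ± 2.42 after poly(I:C), 33.8% ± 1.08 after poly(dA:dT) and 37.6% ± 2.06 in mock, and that of Tgfa was 8.81% ± 0.493, 14.2% ± 1.5 and 21.2% ± 0.375. A share can drop while the level of the gene holds, as for Hbegf here. Errfi1 had 31.6 ± 0.589 CPM per kb after poly(I:C), 15 ± 0.854 after poly(dA:dT) and 10.6 ± 0.404 in mock, above Egfr with 3.02 ± 0.114, 2.58 ± 0.197 and 1.84 ± 0.107 in the same groups.

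**Figure D3:**
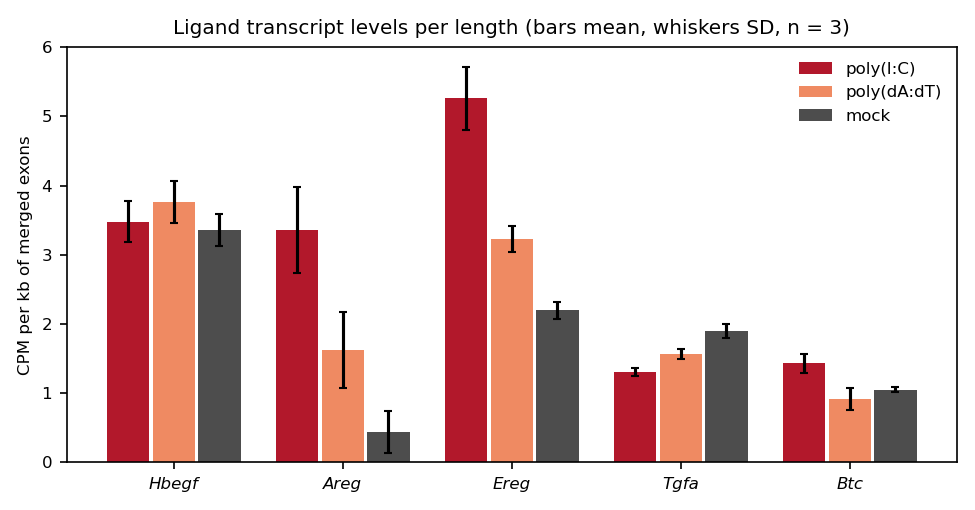
Mean CPM per kb of merged exons of the 5 ligands, as bars from 0 with SD whiskers (n = 3 libraries each), for poly(I:C), poly(dA:dT) and mock from left to right. The Areg bars stand at 3.36, 1.63 and 0.442, the Ereg bars step down from 5.26 after poly(I:C), and the Hbegf bars are within their spread of each other.

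Areg, Ereg and Btc lie near each other on chromosome 5, and the neighbourhood also holds the chemokine genes Cxcl3, Cxcl1 and Cxcl2, whose products attract neutrophils. From Epgn, the epigen gene, through Btc, with 250 kb on each side, 18 genes were annotated and 9 were tested. Of these 9, 6 were called higher and 1 lower with poly(I:C) against mock, and 5 higher and 1 lower with poly(dA:dT) against mock, where Areg, Ereg and, with poly(I:C), Btc are among those higher. Over all tested genes 39.8% were higher and 36.3% lower with poly(I:C), and 26.6% and 26.2% with poly(dA:dT). Cxcl2 with 0, Areg with 1 and Cxcl3 with 2 of 3 mock libraries at the filter level passed the filter through their transfected libraries. Nothing is therefore read from the counts of called genes. Cxcl2, whose start lies 236 kb before that of Areg, had 42.3, 41.7 and 40.4 CPM after poly(I:C), 1.53, 2.14 and 1.87 CPM after poly(dA:dT), and 0, 0.332 and 0.21 CPM in mock. Its fitted fold was 238 with poly(I:C) (190 to 298) and 10.7 with poly(dA:dT) (6.68 to 17), from 0, 8 and 4 mock counts. Leaving out mock replicate 1 gave log2 values of 7.19 and 2.71, and leaving out mock replicate 2 gave 8.83 and 4.36, in the same order of comparisons.

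The other chemokine genes there moved the same way. Cxcl3, 353 kb before Areg, was 15.3-fold higher with poly(I:C) and 2.1-fold higher with poly(dA:dT), and Cxcl1, 248 kb before Areg, 5.31-fold and 1.49-fold. Mthfd2l, a mitochondrial folate enzyme 208 kb before Areg, fell by 0.347 on the log2 scale with poly(I:C) and by 0.231 with poly(dA:dT), and it lies between the chemokine genes and Ereg. Parm1, 378 kb beyond the start of Areg, was not called in either comparison (edgeR adjusted p = 0.584 with poly(I:C) and 0.57 with poly(dA:dT)), nor was Gm19610 (0.825 and 0.49). Thus the genes of the stretch did not all rise. Epgn, between Mthfd2l and Ereg, had 21 counts over all 9 libraries and was not tested.

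**Figure D4:**
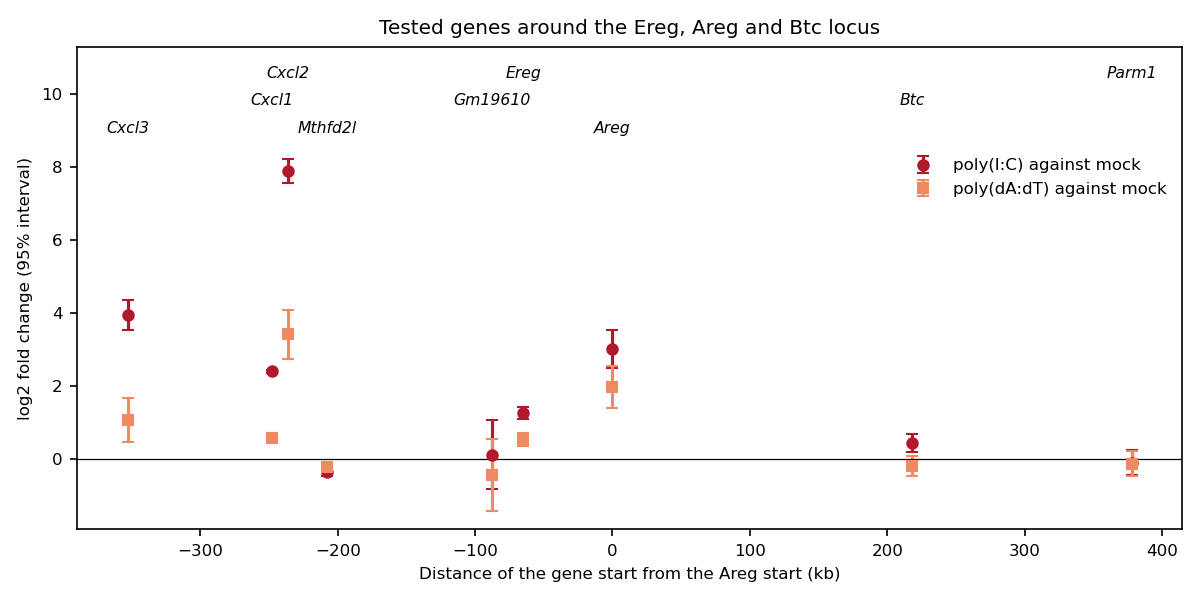
Log2 fold change against mock of the 9 tested genes around Areg, plotted by the distance of each start from that of Areg in kb, for poly(I:C) and poly(dA:dT), with bars for 95% intervals. Cxcl2 is highest at 7.89 with poly(I:C), while Mthfd2l lies below 0 and Parm1 at -0.106 with poly(I:C) and -0.124 with poly(dA:dT).

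The remaining ligands of the EGF family included 3 that also rose with both nucleic acids. The lists of other genes of the pathway were chosen for this description with earlier results of these data known. Of 6 listed, 4 were tested: Egf, Nrg1 and Nrg4 were called higher in each comparison, and Nrg2 did not pass (edgeR adjusted p = 0.774 with poly(I:C) and 0.214 with poly(dA:dT)). Over all tested genes 39.8% were called higher for poly(I:C) against mock, 26.6% for poly(dA:dT) against mock and 31.3% between the nucleic acids. Nrg4 was tested only because of groups in which it was high, as given below, so nothing is read from this count. Egf, the founding ligand of EGFR, had 10.5, 9.78 and 9.23 CPM after poly(I:C), 5.17, 4.92 and 4.43 CPM after poly(dA:dT), and 1.5, 1.45 and 1.58 CPM in mock. The groups did not overlap, and the folds against mock were 6.53 (5.33 to 8; edgeR adjusted p = 5.97e-39) with poly(I:C) and 3.2 (2.55 to 4.02; edgeR adjusted p = 3.76e-17) with poly(dA:dT). Per kb, however, Egf stood at 0.873 ± 0.057 CPM after poly(I:C), below all 5 ligands described above.

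Neuregulins, which bind ERBB3 and ERBB4 rather than EGFR, gave 2 further rises. Nrg1 had 30.7, 27.9 and 29.7 CPM after poly(I:C), 18.5, 21.2 and 20.2 CPM after poly(dA:dT), and 15.2, 14.7 and 13.7 CPM in mock, and was 2.01-fold and 1.37-fold higher than mock with poly(I:C) and poly(dA:dT). It shares 482 exon bases with Gm26578, which held 1284 counts. Nrg4 had 49, 75 and 39 counts after poly(I:C), 17, 17 and 11 counts after poly(dA:dT), and 8, 7 and 4 counts in mock, a 9.83-fold (6.3 to 15.3) and a 2.47-fold (1.39 to 4.41) rise. It shares 368 exon bases with Fbxo22, which held 6639 counts, so its reads are uncertain. None of its 3 mock libraries reached the filter level, so it was tested only because of the groups in which it was high. Nrg3 had no count in any library, and Epgn held 6, 6 and 9 counts summed over the poly(I:C), poly(dA:dT) and mock groups.

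Of the other ErbB receptors, ERBB2, the partner that binds no ligand of its own, moved opposite to Egfr. Erbb2 had 55.6, 54.5 and 53 CPM after poly(I:C), 80.9, 78.6 and 78.9 CPM after poly(dA:dT), and 87.8, 95.2 and 89.9 CPM in mock. The groups did not overlap, and the log2 fold change was -0.74 ± 0.039 with poly(I:C) (edgeR adjusted p = 6.78e-41) and -0.195 ± 0.036 with poly(dA:dT) (edgeR adjusted p = 1.23e-06). Erbb3, the receptor with little kinase activity, averaged 5.73 CPM after poly(I:C), 9.11 after poly(dA:dT) and 7.98 in mock. It fell with poly(I:C) (log2 -0.481, edgeR adjusted p = 9.98e-05) and did not pass with poly(dA:dT) (log2 0.192, edgeR adjusted p = 0.113). With total-count scaling and without mock replicate 2 it was called higher with poly(dA:dT). Erbb4 had 3, 5 and 1 counts summed over the poly(I:C), poly(dA:dT) and mock groups and was not tested.

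Genes for ligand release were called in both directions. With poly(I:C) 4 of 9 were higher and 4 lower than in mock (median log2 0.000361), near the 39.8% and 36.3% of all tested genes. With poly(dA:dT) 2 were higher and 5 lower (median -0.12), beside 26.6% and 26.2% of all tested genes. Rhbdf2, which encodes iRhom2, had 73.7, 83.4 and 82.9 CPM after poly(I:C), 59.3, 58.9 and 59.5 CPM after poly(dA:dT), and 42.8, 43 and 41.9 CPM in mock, so its groups were separated. It was 1.88-fold higher with poly(I:C) (edgeR adjusted p = 2.59e-46) and 1.39-fold higher with poly(dA:dT) (edgeR adjusted p = 3.41e-19). Adam17, the main sheddase of Areg, Ereg, Hbegf and Tgfa precursors, had 62.9, 64.7 and 67.1 CPM after poly(I:C), 47.1, 46.8 and 46.2 CPM after poly(dA:dT), and 52.5, 54.3 and 54.4 CPM in mock. It was 1.21-fold higher with poly(I:C) (edgeR adjusted p = 3.7e-09) and 0.87-fold with poly(dA:dT) (edgeR adjusted p = 3.56e-05), that is, lower. It shares 311 exon bases with Iah1, which held 1550 counts. Adam10, the main sheddase of the Egf and Btc precursors, averaged 127 ± 3.73 CPM after poly(I:C), 170 ± 4.18 after poly(dA:dT) and 208 ± 2.46 in mock, and fell in both groups (log2 -0.71 and -0.296 against mock). Adam9 and Adam15, other members of the family, also fell with poly(I:C), by 0.458 and 0.594 on the log2 scale.

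Downstream of the receptor, the list of adaptors and RAS to ERK genes held 11 of 17 called lower and 5 called higher with poly(I:C) against mock (median log2 -0.162), where 36.3% of all tested genes were lower and 39.8% higher. With poly(dA:dT) 8 were lower and 3 higher (median -0.0639), beside 26.2% and 26.6% of all tested genes. With DESeq2, 1 was higher in the poly(dA:dT) comparison, and with total-count scaling its median was 0.0101. The falls with poly(I:C) included Mapk3 (ERK1), at 0.623-fold, Map2k2 (MEK2), at 0.634-fold, Nras, at 0.656-fold, and the adaptor gene Shc1, at 0.657-fold. With poly(dA:dT) Map2k2 was at 0.808-fold, Mapk3 at 0.823-fold, Nras at 0.844-fold and Sos2, a RAS exchange factor, at 0.854-fold.

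Other inhibitors of the receptor and of the pathway were called in both directions, at about the shares of all tested genes. Of 18 tested, 7 were higher and 7 lower with poly(I:C) against mock (median log2 0.029), where 39.8% and 36.3% of all genes were. With poly(dA:dT) 5 were higher and 6 lower (median 0.0651), where 26.6% and 26.2% of all genes were. With total-count scaling, 4 were lower with poly(I:C), and 9 were higher and 3 lower with poly(dA:dT). Spry4, a Sprouty inhibitor of RAS to ERK signalling, had 5.14, 5.38 and 5.52 CPM after poly(I:C), 1.29, 1.88 and 1.43 CPM after poly(dA:dT), and 0.394, 0.498 and 1.47 CPM in mock. Mock replicate 3 was high here, as it was for Areg, and overlapped the poly(dA:dT) libraries. Of the 3 mock libraries, 2 reached the filter level, so Spry4 passed the filter through its transfected libraries. Spry4 was 7.33-fold higher with poly(I:C) (5.39 to 9.96; edgeR adjusted p = 2.96e-23) and 2.13-fold higher with poly(dA:dT) (1.45 to 3.12; edgeR adjusted p = 0.000556). Without mock replicate 3 the log2 values were 3.57 and 1.79, in place of 2.87 and 1.09. Spry2 was 2.39-fold higher with poly(I:C), and Ptprj, a receptor phosphatase that acts on EGFR, 2.07-fold. With poly(dA:dT), Cblb, a ubiquitin ligase of activated receptors, was 1.36-fold higher. Spry3 had a log2 value of -0.285 with poly(dA:dT) (edgeR adjusted p = 0.0278), but this call was lost in 6 of 14 alternatives. These were total-count scaling, DESeq2, and leaving out mock replicate 1 or 3 or poly(dA:dT) replicate 2 or 3.

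Genes that ERK signalling is known to induce were mostly higher. In each of the 3 comparisons, 11 of 16 were called higher and 3 lower, with median log2 fold changes of 0.935 for poly(I:C) against mock, 0.377 for poly(dA:dT) against mock and 0.571 for poly(I:C) against poly(dA:dT). Over all tested genes 39.8%, 26.6% and 31.3% were called higher in these comparisons, and 36.3%, 26.2% and 32.1% lower. Many of these genes answer to other pathways as well. Fos, a component of AP-1, had 16.7, 17.7 and 17.3 CPM after poly(I:C), 8.67, 8.98 and 8.65 CPM after poly(dA:dT), and 1.82, 1.99 and 1.58 CPM in mock, with the groups far apart. It was 9.48-fold higher with poly(I:C) (edgeR adjusted p = 2.37e-57) and 4.82-fold higher with poly(dA:dT) (edgeR adjusted p = 7.07e-34). Dusp6, a phosphatase of ERK, had 10.9, 12.1 and 10.1 CPM after poly(I:C), 3.64, 3.42 and 3.26 CPM after poly(dA:dT), and 2.29, 1.95 and 2.1 CPM in mock. Its rise was 5.22-fold with poly(I:C) (4.33 to 6.29; edgeR adjusted p = 2.71e-37) and 1.62-fold with poly(dA:dT) (1.29 to 2.03; edgeR adjusted p = 0.000194). The immediate early genes Egr1 and Ier2 were 12.8-fold and 6.44-fold higher with poly(I:C). The 3 called lower with poly(I:C) were Emp1, a membrane protein gene, at 0.456-fold, Plaur, the urokinase receptor gene, at 0.669-fold, and Ccnd1, cyclin D1, at 0.683-fold. The 2 not called with poly(I:C) against mock were Etv4 (log2 -0.136, edgeR adjusted p = 0.175) and Etv5 (log2 0.177, edgeR adjusted p = 0.204). Etv4 was lower with poly(I:C) than with poly(dA:dT) (log2 -0.263, edgeR adjusted p = 0.00888). Etv5 was higher with poly(dA:dT) than in mock (log2 0.431, edgeR adjusted p = 0.00143). Plaur, Ccnd1, Etv4, Etv5 and Fosl1 stand outside the rule for named genes and were named after their values were seen. Ccnd1 shares 1100 exon bases with LTO1, which held 3579 counts. Fosl1, called higher in each comparison, shares 1163 of its 2033 exon bases with Ccdc85b, which held 10647 counts.

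**Figure D5:**
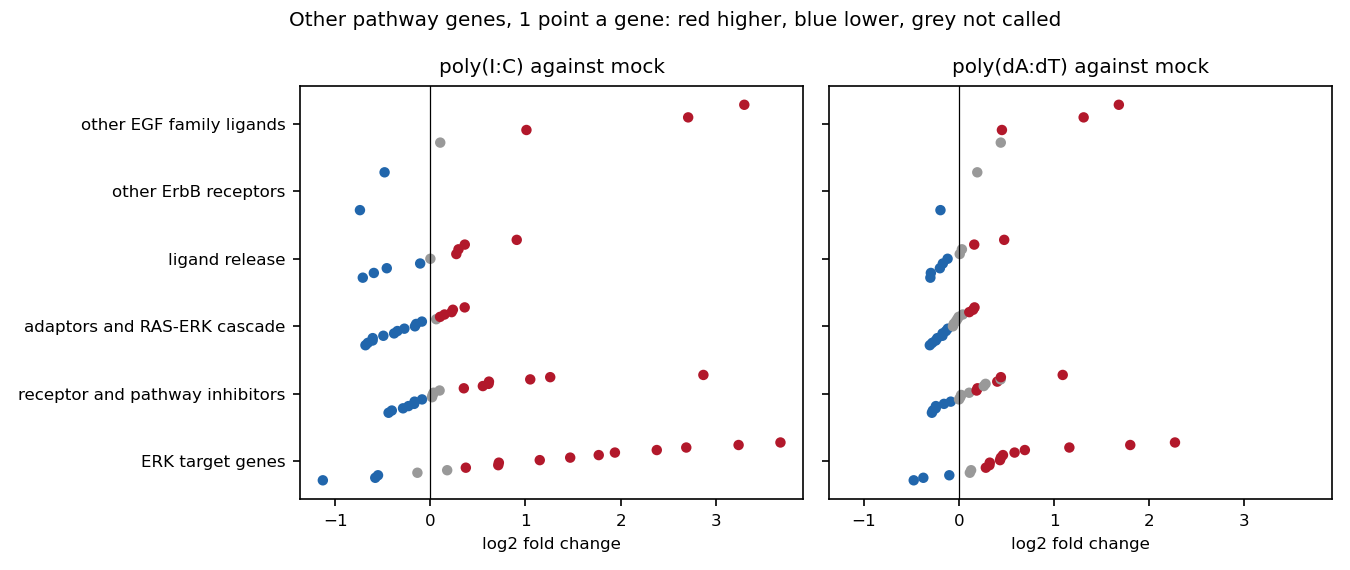
Log2 fold changes against mock of the tested genes of each list, with poly(I:C) in the left panel and poly(dA:dT) in the right. Each point is a gene, red where called higher, blue where called lower and grey where not called; the ERK target genes have medians of 0.935 and 0.377, and the adaptors and RAS to ERK genes of -0.162 and -0.0639.

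By the root mean square difference of centred log2 levels over the 9 libraries, the genes nearest to a member were sought among 11937 genes. Errfi1 was nearest to Nfkbia, the NF-kB inhibitor gene, with a difference of 0.0503, then to C3 (0.0619) and Parp8 (0.0628). Nfkbia averaged 249 CPM after poly(I:C), 119 after poly(dA:dT) and 86.2 in mock. Areg had no neighbour as close: Chrnb4 was at 0.248, Lif, an interleukin-6 family cytokine, at 0.265 and Efnb3 at 0.275, with correlations of 0.973, 0.96 and 0.959. The Areg mock libraries held 7, 10 and 18 counts, and how far counting spread widens these differences was not tested. Ereg was nearest to Trmu (0.0709), Egfr to Ric8b (0.0555), Tgfa to Purb (0.0342) and Btc to Nupr1 (0.106). With 3 groups behind 9 libraries, a small difference mainly says that the 3 group levels stand in like proportion.

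Markers of other cell types were low in all groups. Some endothelial markers were higher than in mock with both nucleic acids, and some epithelial markers with poly(I:C). The 4 endothelial markers summed to 4.65 to 4.82 CPM after poly(I:C), 2.74 to 3.25 after poly(dA:dT) and 0.788 to 1.11 in mock. Pecam1, Kdr and Cdh5 were called higher in both comparisons with mock, but 1, 1 and 0 of their 3 mock libraries reached the filter level, so they were tested only through libraries in which they were high. Cdh5, the endothelial cadherin gene, had 61 counts after poly(I:C), 14 after poly(dA:dT) and 0 in mock. The 8 epithelial markers summed to 8.96 to 9.45 CPM after poly(I:C), 8.87 to 9.67 after poly(dA:dT) and 9.12 to 10.6 in mock, of which Krt18 made up the greater part with 6.16, 7.23 and 7.97 CPM. Of the epithelial markers, Cdh1 (E-cadherin) was 2.27-fold higher with poly(I:C) than in mock (edgeR adjusted p = 0.000497), at 1.39, 0.902 and 0.622 CPM after poly(I:C), after poly(dA:dT) and in mock. Krt14, a basal keratin gene, was 2.03-fold higher with poly(I:C) than in mock (edgeR adjusted p = 0.00501; not called with DESeq2 or without mock replicate 1 or poly(I:C) replicate 1), at 1.24, 0.369 and 0.617 CPM. Against poly(dA:dT), poly(I:C) was 1.58-fold higher for Cdh1 (edgeR adjusted p = 0.0481, lost in 7 of 13 alternatives) and 3.24-fold higher for Krt14 (edgeR adjusted p = 4.5e-05). Cdh1 and Krt14 each had 2 of 3 mock libraries at the filter level. After poly(I:C) both had 3, and after poly(dA:dT) Cdh1 had 3 and Krt14 had 1. Cdh1 thus passed the filter through its transfected libraries. Krt14 reached that level in all 3 libraries only in the poly(I:C) group, where it was highest. Its comparisons with poly(I:C) are therefore a description only. Krt18 was lower with poly(I:C) than in mock (0.772-fold, edgeR adjusted p = 0.00222). Krt5 and Krt8, which were not tested, averaged 0.0828 and 0.153 CPM after poly(I:C). They had 0.237 and 0.328 CPM after poly(dA:dT), and 0.213 and 0.321 in mock. Of the 3 tested epithelial markers, 0 were called with poly(dA:dT) against mock, beside 52.8% of all tested genes. Epcam, Cldn7 and Esrp1 held at most 9 counts each per group. The 6 macrophage markers summed to 2.22 to 3.66 CPM after poly(I:C), 2.83 to 3.51 after poly(dA:dT) and 4 to 4.9 in mock. Of the 9 fibroblast markers, 7 were lower and 1 higher with each nucleic acid against mock, where 36.3% of all tested genes were lower with poly(I:C) and 26.2% with poly(dA:dT). The part of these markers in the results on the 7 genes was not tested. In bulk RNA, fewer cells of a type and less RNA per cell cannot be told apart.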

How the data were processed

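The authors deposited raw read counts per Ensembl gene for each of the 9 libraries. The build was GRCm38.p4, and the tools named are TopHat2 2.1.0, HTSeq and DESeq2, per the submitters' processing notes. What was done about strand and multiply mapped reads, and which annotation release, remain not given in the sources used here. Per the labels' protocols, the TruSeq RNA kit v2 was used, which does not mark strand. No deposited column was left unused.

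Symbols, positions and merged exons came from GENCODE M21, which held 46091 of 46603 identifiers; the other 512 carried 0.0588% of the counts. The test was that of edgeR 4.0.16 under R 4.3.3 (filterByExpr, TMM, robust quasi-likelihood, two-sided, 1 fit over 9 libraries with a mean per group, Benjamini-Hochberg threshold 0.05). Each SE was taken as the size of the log2 fold change over the root of its F statistic, and 95% intervals are normal ones from it. Likeness used log2(CPM + 0.5).

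The labels do not say whether replicates are separate cultures, so the p-values may rest on technical spread alone. The chi-square per degree of freedom between replicates was 1.64 to 2.1, above sampling noise, so each library counts once. Counting limits cover counting error only, since reads lack molecular identifiers. The labels name no batch.

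The 7 genes, the pathway and marker lists and the motifs were chosen with earlier results of these data known. Named genes are the 7, every gene of lists of 6 or fewer, up to 4 called genes with the largest change from longer lists, the tested chromosome 5 neighbours, and the nearest genes by likeness, which for Hbegf are not reported here. Alternatives were other scalings, DESeq2 1.42.0, no filter, a filter of 50 counts in 3 libraries, fits of the 2 groups compared, a replicate block, and each library left out.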

Additional observations from a re-analysis of the deposited data

How the results depend on the processing

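Under 17 other settings, 294 values of the 7 genes were recomputed: 282 kept their direction and their side of the threshold, 4 gained a call, 5 lost one, and 3 changed sign. The changes were all in Hbegf and Tgfa. The Hbegf value for poly(I:C) against mock, which is not called, ran between log2 -0.0136 and 0.112 with 1 library left out, -0.00412 and -0.00159 among them. The number of members called lower with poly(dA:dT) against mock was 0 in place of 1 with total-count scaling. With poly(I:C) against poly(dA:dT) it was 0 in place of 1 with DESeq2, and between 0 and 1 with 1 library left out, which is Tgfa in each case. Members called higher with poly(dA:dT) against mock ran between 4 and 5 with 1 library left out. Total-count scaling moved the median log2 fold change of all tested genes to 0.15 in place of 0.0363 for poly(I:C) against mock. Hbegf lay at the median in the reported fit, at 0.0365, and under total-count scaling, at 0.15. Scaling moves all genes of a comparison nearly alike, so this is no check on Hbegf. Total-count scaling called 5000 genes higher and 2392 lower with poly(dA:dT) against mock, in place of 3769 and 3721. It leaves out the TMM factors of the reported fit. These were 0.9566 to 0.959 in mock, 1.007 to 1.009 after poly(dA:dT) and 1.034 to 1.037 after poly(I:C). Why the factors differ between groups was not tested.

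With the replicate number as a replicate block, the members called higher and lower were 5 and 1 for poly(I:C) against mock, 4 and 1 for poly(dA:dT) against mock, and 5 and 1 between the nucleic acids, and no member's call changed. Over all genes the block called 5615 higher and 5109 lower with poly(I:C), and 3723 and 3661 with poly(dA:dT). Deviations of same-numbered libraries correlated between -0.0204 and 0.0272, and 1 of 9 libraries had its 2 best matches among libraries of its own number. No pairing by number was thus seen in these values. The labels do not say whether same-numbered samples share more than the number. Depth limits Areg most, with 7 to 18 counts per mock library.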
